A study of Mus musculus with 4 samples.

Results

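Gata3, Zbtb16, Rora, Il2rb, Cxcr6, Ccr6, Il1rl1, Thy1, Cd7 and Arg1 are genes by which innate lymphoid cells are commonly recognised. They were followed as a list of 10 of the 32285 genes measured, chosen by name. Single-cell RNA and surface protein were measured together in mouse bone marrow cells sorted as CD45.2+Lin-Sca1+Kit+, abbreviated LSK, a population of blood-forming stem and progenitor cells. The sorted cells carried the donor marker CD45.2 and were taken 10 weeks post-transplantation. There was 1 library for each of 4 genotypes, which the labels call control, Mll3 deleted, Mll4 deleted and Mll3/4 deleted. The labels give no age of the animals, no number of mice, no agent and no Cre driver.

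Innate lymphoid cells are lymphocytes that make cytokines without a rearranged antigen receptor. They arise in the bone marrow from lymphoid progenitors in which Id2 opposes the B- and T-cell programmes and Zbtb16 marks a shared precursor stage. Group 2 cells depend on Gata3 and Rora and sense interleukin 33 through the receptor made from Il1rl1, whereas part of group 3 carries the chemokine receptor Ccr6. Mature innate lymphoid cells are rare in marrow, and several of the 10 genes are also used by T cells, mast cells, macrophages or stem cells.

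The kept cells numbered 7274 in the control, 6101 in the library labelled Mll3, 4793 in that labelled Mll4 and 4748 in that labelled Mll3/4, with 50792614 to 120700343 UMIs (unique molecular identifiers, each a counted RNA molecule) per library. Kmt2c, the gene of Mll3, was at 68.9 CPM (UMIs of the gene among 1000000 UMIs of the library) in the control, 35.3 in the library labelled Mll3, 61.3 in that labelled Mll4 and 42.3 in that labelled Mll3/4. Kmt2d, the gene of Mll4, was at 24.6 (23.7 to 25.5), 21.6 (20.7 to 22.5), 22.6 (21.7 to 23.4) and 25.4 CPM (24.0 to 26.8) in that order. The Mll4-labelled library lay below the control by less than the Mll3-labelled one did, and the Mll3/4-labelled library overlapped the control. Counts of a part of the gene outside the deletion would not show it, so this checks the Mll4 labels in neither direction, and libraries are named by their labels here. The libraries differed in the cells they held. Summed over fixed marker lists, 10 B-lineage genes reached 13158.8 CPM in the Mll3/4-labelled library and 60.7 in the control, 9 mast cell and basophil genes reached 1667.2 CPM in the Mll4-labelled library and 23.9 in the control, and 8 stem cell genes were at 608, 645, 361 and 144 CPM in the 4 libraries. Pairs of libraries shared 7 to 14 cell barcodes. Every interval given is a 95% interval that covers counting error only (exact Poisson for UMIs, exact binomial for shares of cells), and with 1 library per genotype no test between genotypes was possible.

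Upstream sequence was at hand for 5 of the 10 genes, in 7 windows of 250 bases that end where a RefSeq transcript starts (GRCm38.p6). The windows of Cxcr6, Ccr6 and Il1rl1 are shown, because these genes were at higher levels in the Mll4-labelled library than in the control and each holds a match to a motif searched. All are on the plus strand, and capitals mark the matches.
Cxcr6, chr9:123806227-123806476: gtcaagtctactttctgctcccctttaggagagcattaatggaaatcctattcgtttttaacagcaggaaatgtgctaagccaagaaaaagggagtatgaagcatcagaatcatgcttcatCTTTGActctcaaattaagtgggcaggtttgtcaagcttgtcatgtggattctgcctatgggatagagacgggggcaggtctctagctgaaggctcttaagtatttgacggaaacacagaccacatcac
Ccr6, chr17:8235793-8236042: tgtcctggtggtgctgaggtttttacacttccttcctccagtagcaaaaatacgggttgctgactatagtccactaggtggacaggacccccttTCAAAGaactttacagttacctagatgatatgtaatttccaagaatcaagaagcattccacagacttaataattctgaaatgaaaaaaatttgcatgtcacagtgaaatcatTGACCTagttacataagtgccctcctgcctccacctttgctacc
Il1rl1, chr1:40429320-40429569: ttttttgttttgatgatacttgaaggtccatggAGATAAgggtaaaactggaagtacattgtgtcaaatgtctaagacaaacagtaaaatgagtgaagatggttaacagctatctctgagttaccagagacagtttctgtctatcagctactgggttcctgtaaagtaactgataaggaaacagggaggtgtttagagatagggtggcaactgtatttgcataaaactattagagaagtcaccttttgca
The Cxcr6 window holds CTTTGA, the core of the TCF/LEF motif. The Ccr6 window holds the same core and AGGTCA, a ROR element, both read on the opposite strand. The Il1rl1 window holds a motif of GATA factors, spelled AGATAA, which another Il1rl1 window at chr1:40439379-40439628 also holds, on the opposite strand, beside AGGTCA. Another Ccr6 window, at chr17:8242276-8242525, holds AGATAA and CTTTGA. Both strands were searched for these motifs and for the E-box CAGCTG. Of 32851 RefSeq windows of the same length, 9.99% hold AGATAA, 13.8% CTTTGA, 14% AGGTCA, 13% CAGCTG and 41.3% at least 1 of the 4, so the matches are a description of these sequences. The windows of Gata3 and Rora hold no match. The genes with no window were Zbtb16, Il2rb, Arg1, Thy1 and Cd7.

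The first comparison set the library totals of each deleted genotype against the control. In the Mll4-labelled library 5 of the 10 genes were at least 2-fold higher (Il1rl1, Arg1, Cxcr6, Ccr6 and Il2rb) and none was 2-fold lower. Over the 16377 genes with at least 20 UMIs in both libraries together, 15.5% were at least 2-fold higher there and 8.01% at least 2-fold lower. In the Mll3/4-labelled library 8 of the 10 were at least 2-fold lower, against 20.4% of 15661 genes, and none was 2-fold higher, against 14%. In the Mll3-labelled library Zbtb16 and Ccr6 were at least 2-fold lower, against 3.26% of 15758 genes, and none was 2-fold higher, against 5.89%. The median log2 ratio of the 10 genes was -0.50 in the library labelled Mll3, 0.99 in that labelled Mll4 and -3.00 in that labelled Mll3/4, where the medians of all genes were 0.10, -0.05 and -0.13. With Ccr6, which had no UMI in the Mll3/4-labelled library, set at its bound, the last median was -2.81. All 10 genes passed the minimum of 20 UMIs in each comparison, but in the Mll3/4 comparison Il2rb, Cxcr6, Arg1, Ccr6, Thy1, Cd7 and Rora passed it through the control alone, so their count there is a description. The 3 comparisons share the control library.

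**Figure D1:**
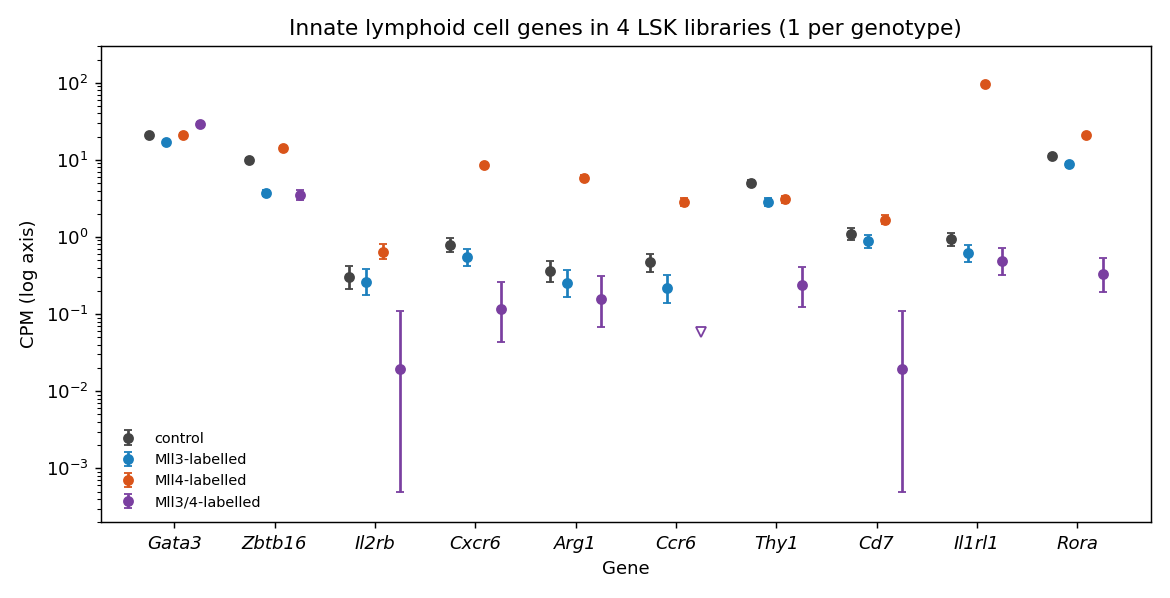
Level of the 10 genes in each library, in CPM on a log axis. Points are single libraries and bars 95% exact Poisson intervals; the triangle is the 0.0591 CPM that a count of 0 allows for Ccr6 in the Mll3/4-labelled library, and Il1rl1 in the Mll4-labelled library stands at 95.8 against 0.930 in the control.

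Of the transcription factors, Gata3, which directs group 2 innate lymphoid and T cells and is also present in blood stem cells, was detected in many cells of every library. It was at 20.9 CPM in the control, 16.9 in the library labelled Mll3, 21.2 in that labelled Mll4 and 29.45 in that labelled Mll3/4. The control and the Mll4-labelled library overlapped in their intervals (20.1 to 21.8 and 20.4 to 22.1), and the Mll3/4-labelled library was highest at a log2 ratio of 0.49 (0.40 to 0.59). A Gata3 UMI was found in 26.5% of control cells and in 22.9%, 22.0% and 23.1% of the Mll3-, Mll4- and Mll3/4-labelled cells, an order that differs from that of the CPM, so no order is read from the shares. Among granulocyte-monocyte-like cells, a type not known for Gata3, the share was 6.25% of 96 control cells at a median of 26403 UMIs and 4.83% of 994 Mll4-labelled cells at 45499.5 UMIs, against library medians of 14454 and 21400 UMIs.

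Zbtb16 encodes PLZF, the factor that marks innate lymphoid precursors and innate-like T cells. It was at 9.86 CPM in the control, 3.72 in the library labelled Mll3, 14.2 in that labelled Mll4 and 3.50 in that labelled Mll3/4. The Mll3-labelled and Mll3/4-labelled libraries overlapped in their intervals and lay below the other 2 (log2 ratios to control of -1.40 and -1.49). Under the Mll4 label, granulocyte-monocyte-like cells held most of the Zbtb16, with 60.8% of its UMIs, at 21.9 CPM (20.5 to 23.2), against 10.7 CPM (7.13 to 15.3) in the same cluster of the control. Within the HSC-like cluster 1, Zbtb16 was at 12.2 CPM in 2289 control cells and 2.80 in 663 Mll3-labelled cells with medians of 10630 and 10902 UMIs per cell. The lower level of the Mll3-labelled library was thus found within a cluster as well.

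Rora, which encodes the nuclear receptor that group 2 innate lymphoid cells require, was at 11.25 CPM in the control, 8.74 in the library labelled Mll3, 20.85 in that labelled Mll4 and 0.335 in that labelled Mll3/4. No interval overlapped another. The 17 Rora UMIs of the Mll3/4-labelled library, in 15 of 4748 cells, gave a log2 ratio of -5.03 (-5.86 to -4.39). Gata3 and Rora thus lay on opposite sides of the control in that library, with log2 ratios of 0.49 and -5.03. In that library 65.2% of the Gata3 UMIs were in the B lineage-like cluster 2, where Gata3 was at 46.6 CPM, and the part of the B-lineage cells in either value was not tested.

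The surface receptors Cxcr6, Ccr6, Il1rl1 and Il2rb were rare outside the Mll4-labelled library. Ccr6 and Il2rb were rare in that library too, in 1.52% and 0.793% of its cells. Cxcr6, a chemokine receptor that marks innate lymphoid precursors leaving the marrow, was at 0.788 CPM in the control, 0.548 in the library labelled Mll3, 8.54 in that labelled Mll4 and 0.118 in that labelled Mll3/4. It was found in 39, 26, 321 and 6 cells of the 4 libraries in that order. The Mll4-labelled library stood alone at a log2 ratio of 3.43 (3.13 to 3.76), and its 6.70% of cells with a Cxcr6 UMI compared with 1.51% in its granulocyte-monocyte-like cells, which were sequenced more deeply.

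Ccr6, the receptor for the chemokine CCL20, was at 0.469 CPM in the control, 0.217 in the library labelled Mll3, 2.84 in that labelled Mll4 and 0 in that labelled Mll3/4. No interval overlapped another. The log2 ratio was 2.59 (2.19 to 3.03) in the Mll4-labelled library and -1.09 (-1.88 to -0.39) in the Mll3-labelled one. A count of 0 in the Mll3/4-labelled library allows up to 0.0591 CPM, so that Ccr6 was at least 7.95-fold lower than the 0.469 CPM of the control. With the counting error of the control included, the ratio reached up to 0.160, and 0 of 4748 cells allows a share of up to 0.0632% of cells with a UMI.

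Il1rl1 had the highest ratio of the 10 genes, with 111 UMIs (0.930 CPM) in the control, 65 (0.614) in the library labelled Mll3, 11564 (95.8) in that labelled Mll4 and 25 (0.492) in that labelled Mll3/4. The gene encodes ST2, the interleukin 33 receptor of group 2 innate lymphoid cells and of mast cells. The log2 ratio in the Mll4-labelled library was 6.68 (6.42 to 6.97). There, 64.1% of its UMIs lay in the mast or basophil-like cluster 12, where it was at 1688 CPM and found in 99.0% of 620 cells, and 14.9% lay in cluster 13, which is described below. Leaving out clusters 8, 12 and 14 of every library, which hold monocyte or macrophage-like, mast or basophil-like and mature B or plasma-like cells, gave a log2 ratio of 4.87. An Il1rl1 UMI was found in 13.5% of the granulocyte-monocyte-like cells of that library, so that low counts of it there cannot be told apart from free RNA.

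Il2rb, the interleukin 2 and 15 receptor chain of natural killer cells and innate lymphoid precursors, had 36 UMIs in the control, 28 in the library labelled Mll3, 78 in that labelled Mll4 and 1 in that labelled Mll3/4. These are 0.302, 0.264, 0.646 and 0.0197 CPM. The Mll4-labelled library lay above the other 3 at a log2 ratio of 1.09 (0.51 to 1.71), and the ratio of the Mll3/4-labelled library to the control was 0.0966 (0.00161 to 0.388). The control and Mll3-labelled intervals overlapped.

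Thy1 and Cd7 are surface proteins that T cells share with innate lymphoid cells. Cd7 had the same order of libraries as Cxcr6 and Ccr6, and Thy1 did not. Thy1 was highest in the control, at 5.003 CPM, and was at 2.87 in the library labelled Mll3, 3.07 in that labelled Mll4 and 0.236 in that labelled Mll3/4. The log2 ratio of the Mll4-labelled library was -0.70 (-0.89 to -0.51), but with every cell weighted equally it was 0.22. Cd7 was at 1.09, 0.878, 1.68 and 0.0197 CPM, with 1 UMI in the Mll3/4-labelled library. In the Mll3-labelled library 53.6% of the Thy1 UMIs lay in the T-like cluster 17, which held 83 of its cells and 15 of the control. For the Mll4 label, 28.1% of the Cd7 UMIs lay in the dendritic-like cluster 15.

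Arg1 encodes arginase 1, an enzyme of group 2 innate lymphoid cells and their precursors and of macrophages. It had 43 UMIs in the control (0.360 CPM), 27 in the library labelled Mll3 (0.255), 711 in that labelled Mll4 (5.89) and 8 in that labelled Mll3/4 (0.158). The Mll4-labelled library stood alone at a log2 ratio of 4.02 (3.59 to 4.51), while the Mll3-labelled interval overlapped those of its neighbours. In that library 88.2% of the Arg1 UMIs were in cluster 13. The monocyte or macrophage-like cluster 8 had an Arg1 UMI in 0.680% of its cells over all libraries.

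The second comparison asked whether the genes were found in the same cells. Cells with a UMI of at least 3 of the 10 genes numbered 158 of 7274 in the control (2.17%, 1.85 to 2.53), 56 of 6101 in the library labelled Mll3 (0.918%, 0.694 to 1.19), 501 of 4793 in that labelled Mll4 (10.5%, 9.60 to 11.4) and 1 of 4748 in that labelled Mll3/4 (0.0211%, 0.000533 to 0.117). These cells are a range and not a cell type, and many lay near the limit, with 115, 41, 183 and 1 cells at exactly 3 genes. At least 5 genes were found in 22 control, 9 Mll3-labelled and 199 Mll4-labelled cells.

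Depth moved with this count, and its part in the count was not tested beyond thinning. Control cells with at least 3 genes had a median of 19371.5 UMIs against 13742 in cells with none, and 41 of the 158 held Gata3, Zbtb16 and Rora alone. In the Mll4-labelled library the order was the other way, with medians of 9150 and 20560 UMIs. After thinning each cell to 3000 UMIs, the shares were 0.468% in the control, 0.247% in the library labelled Mll3, 5.645% in that labelled Mll4 and 0% in that labelled Mll3/4. Counting the 7 genes other than Gata3, Zbtb16 and Rora, which stem cells also use, 2 or more were found in 0.839%, 0.492%, 7.66% and 0% of cells.

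**Figure D2:**
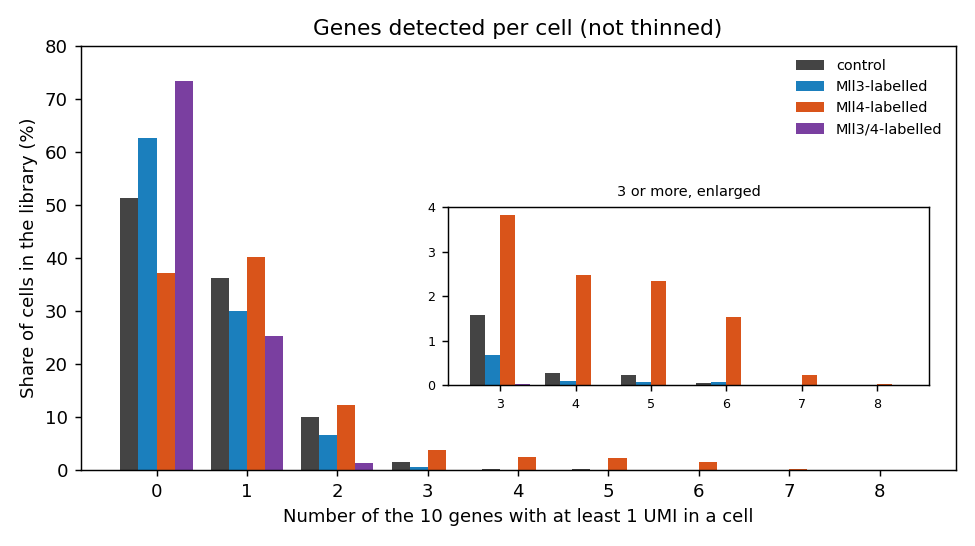
Percent of the cells of each library (bars, not thinned) by how many of the 10 genes had a UMI, with 3 or more enlarged in the inset. The Mll4-labelled library held 501 cells with 3 or more and the Mll3/4-labelled library 1.

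Cxcr6 and Rora were found together in both the control and the Mll4-labelled library. Of control cells with a Cxcr6 UMI, 61.5% (44.6 to 76.6, 39 cells) also had Rora, against 13.9% of cells without Cxcr6, although the first were shallower, at medians of 5848 and 14492 UMIs. Under the Mll4 label, Rora was found in 79.4% of 321 Cxcr6 cells (74.6 to 83.7) and 14.2% of the others, and the intervals for Cxcr6 cells overlapped between the libraries. Gata3 and Rora were found together in 16.9% of Gata3 cells of the control against 13.2% of the others, and in 43.8% against 11.5% in the Mll4-labelled library. In the control 31.4% of the Gata3 UMIs lay in the HSC-like cluster 1.

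The cells of all libraries were then clustered without the 10 genes, to see where the genes lay. The 20 clusters included 1 of 424 cells, numbered 13, which was singled out for its levels of genes of the list. Of the cells with at least 4 of the 10 genes, it held 79.1% in the control, 80% in the Mll3-labelled and 87.1% in the Mll4-labelled library. Of those with at least 3, it held 27.85%, 35.7% and 64.5%. Its 10 leading genes by fold were Cxcr6, Stab2, Arg1, Ccr6, Icos, Pdcd1, Gimap3, Skap1, Tcrg-C4 and Klrb1b. The cluster held 48 control (0.660%, 0.487 to 0.874), 22 Mll3-labelled (0.361%, 0.226 to 0.545), 353 Mll4-labelled (7.36%, 6.64 to 8.14) and 1 Mll3/4-labelled cell. At least 3 of the 10 genes were found in 44, 20 and 323 of the cells labelled control, Mll3 and Mll4. The cluster is called by its number and given no cell type name, as 3 of 12 T markers were raised and none of these was among its 10 leading genes. The fixed marker lists held none for innate lymphoid cells, so the naming rule could not have given that name.

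**Figure D3:**
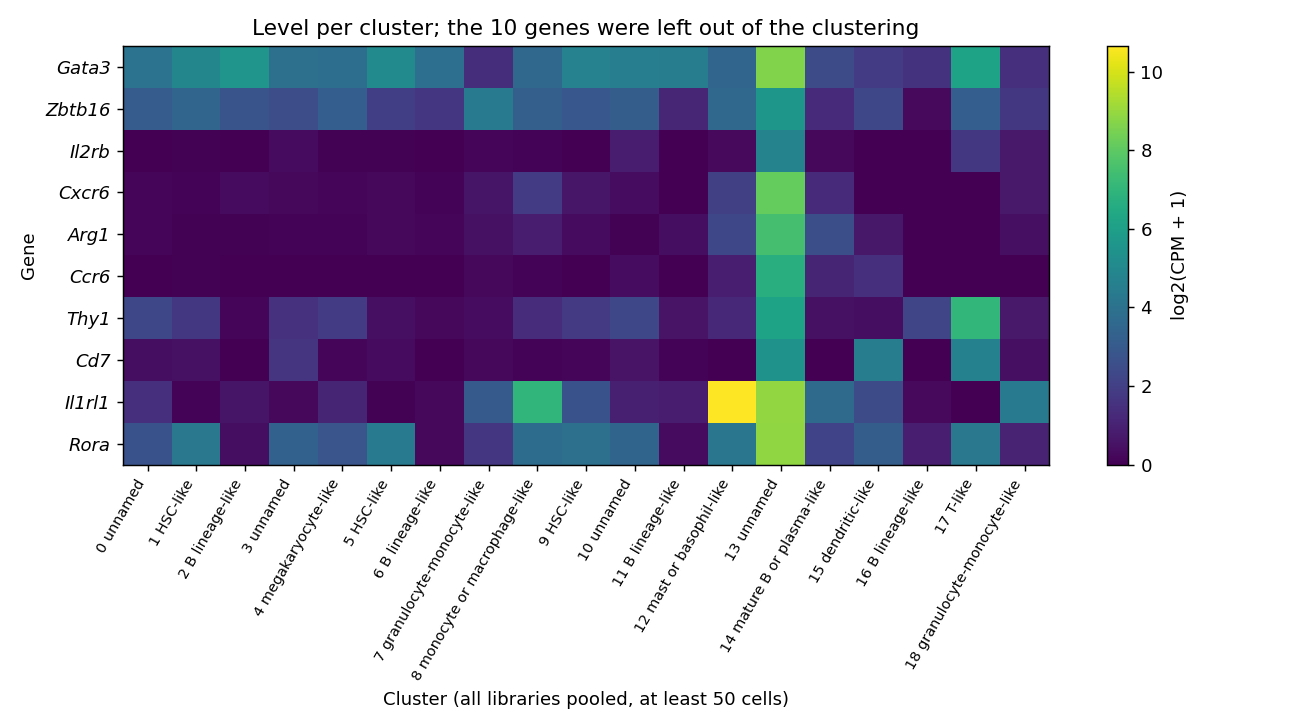
Level of the 10 genes (rows) in the 19 clusters of at least 50 cells (columns), with the libraries pooled, coloured by log2(CPM + 1). Cxcr6, Arg1 and Ccr6 stood highest in cluster 13, Il1rl1 in the mast or basophil-like cluster 12 and Thy1 in the T-like cluster 17.

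For 3 genes the cluster accounted for most UMIs in the control as well as in the Mll4-labelled library. As the cluster was singled out by genes of the list, its shares of their UMIs describe it and test nothing. It held 91.5% of the Cxcr6 UMIs of the control and 89.7% of those of the Mll4-labelled library, from 0.660% and 7.36% of the cells. The values were 83.7% and 88.2% for Arg1 and 96.4% and 92.1% for Ccr6. Gata3 and Rora divided differently, with 3.56% and 51.0% of the Gata3 UMIs and 7.74% and 64.1% of the Rora UMIs there. Both genes were also present in the HSC-like cluster 1 of the control, at 30.3 CPM for Gata3 and 18.5 CPM for Rora.

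The third comparison therefore set cluster 13 cells against cluster 13 cells, and the rest against the rest. Inside the cluster, Cxcr6 was at 241 CPM (193 to 298) in the control, 240 (171 to 329) in the library labelled Mll3 and 293 (274 to 312) in that labelled Mll4, and these intervals overlapped. The log2 ratio of Cxcr6 inside was 0.27 (-0.04 to 0.62), where that of the whole library was 3.43. The interval of the ratio inside the cluster lay below the whole-library ratio throughout. Outside the cluster the log2 ratio of Cxcr6 was 3.67 (2.715 to 4.99), on 8 UMIs in the control. The share of cells in the cluster was 0.660% in the control and 7.36% in the Mll4-labelled library, and its part in the whole-library ratio was not tested.

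Other genes did differ inside the cluster between the Mll4-labelled library and the control. Il1rl1 was at 547 CPM against 137, a log2 ratio of 1.98 (1.58 to 2.43). Arg1 was at 199 against 101 CPM (0.96, 0.49 to 1.503), Rora at 511 against 291.5 (0.80, 0.52 to 1.11) and Gata3 at 414 against 249.5 (0.72, 0.42 to 1.06). Zbtb16 had 180 UMIs in 353 Mll4-labelled cells and 1 UMI in 48 control cells, a log2 ratio of 3.76 (1.85 to 9.66). Lower in the Mll4-labelled cells were Cd7 (36.1 against 98.1 CPM, -1.46), Thy1 (63.0 against 160, -1.35), Il2rb (21.2 against 42.1, -1.02) and Ccr6 (100 against 151, -0.61).

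Outside cluster 13 the order of several genes turned. Gata3 was at 10.7 CPM in the other Mll4-labelled cells and 20.2 in the other control cells, a log2 ratio of -0.92 (-1.02 to -0.83), where the 2 whole libraries had overlapping intervals. Rora was at 7.67 and 10.4 CPM (-0.44), where the whole-library ratio was 0.89. Cxcr6, Arg1 and Ccr6 stayed above the control outside the cluster at log2 ratios of 3.67, 3.51 and 3.48, but these rest on 8, 7 and 2 UMIs in the control.

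**Figure D4:**
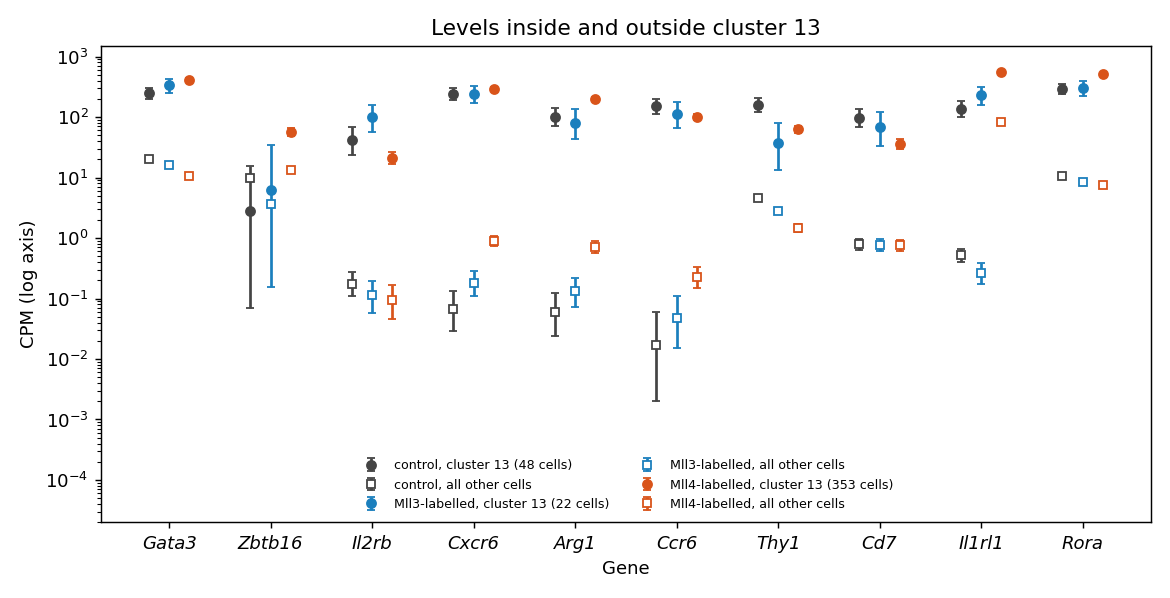
Level of the 10 genes inside cluster 13 (filled circles; 48 control, 22 Mll3-labelled and 353 Mll4-labelled cells) and in all other cells of the same libraries (open squares), in CPM on a log axis with 95% exact Poisson intervals. Gata3 in the Mll4-labelled library was above the control inside and below it outside, whereas the Cxcr6 intervals overlapped inside.

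Markers of other cell types were present in the cluster to different degrees. Cells of cluster 13 were shallow, with medians of 4920.5, 4133 and 7589 UMIs in the control and the Mll3- and Mll4-labelled libraries against 14454, 15381 and 21400 in those libraries. Of 12 T markers, 10 had UMIs in the Mll4-labelled cells and 6 in the control cells, with Cd3e and Trac at 0 in both. In the Mll4-labelled cells Cd3d, Cd3g, Cd8a, Cd8b1 and Cd28 had only 1 to 8 UMIs each. Trbc1, Trbc2 and Cd4 were at 404, 307 and 22.2 CPM there, and at 67.3, 258 and 84.1 in the control cells. In a separate list of gamma-delta T genes, Tcrg-C1 was at 71.6 CPM in the Mll4-labelled cells. Of the same list, Trdc had 1 UMI there and Sox13 was at 0.950 CPM against 2.77 outside. Trbc1 and Trbc2 are near-identical copies and their split is uncertain. Of 9 mast cell and basophil markers, 8 had UMIs in the Mll4-labelled cells at a sum of 819 CPM, of which Cpa3 made up 720. The sum was 1690 CPM in the other cells of that library. At least 2 of the markers were found in 38.2% of the 353 cells, and in 35.1% of Mll4-labelled cells with none of the 10 genes. In the 48 control cells 1 of the 9 had UMIs, Cpa3 at 11.2 CPM, and no cell held 2.

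Markers of natural killer, granulocyte-monocyte, monocyte and dendritic cells were also found there. Of 11 natural killer or cytotoxic genes, 10 had UMIs in the Mll4-labelled cells of the cluster and 7 in the control cells, with Gzma at 0 in both. Their sums were 152 and 154 CPM, against 133.5 and 189 in the other cells of those libraries. Ncr1, an activating receptor of natural killer and some innate lymphoid cells, was at 24.7 CPM in the Mll4-labelled cells and 42.05 in the control cells, against 0.0766 and 0.00841 in the others. These levels rest on 13 of the 353 Mll4-labelled and 6 of the 48 control cells. Nkg7 went the other way, at 62.4 and 75.7 CPM in the cluster against 93.8 and 185 in the others. Gzmb was also lower in the Mll4-labelled cells of the cluster, at 6.02 CPM against 21.65. All 8 granulocyte-monocyte genes had UMIs in the Mll4-labelled cells, at a sum of 723 CPM against 10590 outside. At least 2 of them were found in 93.2% of these cells, against 6.25% in the control, where 5 of the 8 had UMIs at 249.5 CPM. Among cells with none of the 10 genes, the shares were 95.05% in the Mll4-labelled library and 45.5% in the control. All 10 monocyte or macrophage genes had UMIs in the Mll4-labelled cells and 6 in the control cells, at sums of 887 and 185 CPM. The other cells of those libraries summed to 1444 and 79.0 CPM. Most of the sums in the cluster was Ccr2, a chemokine receptor of monocytes and some lymphoid progenitors, at 753.5 CPM in the Mll4-labelled and 112 in the control cells. The 9 dendritic genes summed to 1668 and 2624 CPM in the cluster, against 1973 and 244 in the other cells. These sums came mainly from Cd74 and H2-Aa, which serve antigen presentation, and Siglech and Clec9a were at 0 in the cluster cells of both libraries. Ccr9, a homing receptor, was at 120 and 5.61 CPM. The part of these transcripts in the levels of the 10 genes was not tested.

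Because Il1rl1 is also a mast cell gene, its level in cluster 13 was read beside that of Cma1, which encodes mast cell chymase. In the Mll4-labelled library there were 168 Il1rl1 UMIs per 1000 Cma1 UMIs in the mast or basophil-like cluster, 236 in the monocyte or macrophage-like cluster and 183 in the granulocyte-monocyte-like cluster. In cluster 13 there were 11437. Beside Cpa3, another mast cell protease gene that progenitors use too, the distance was smaller, with 759 Il1rl1 UMIs per 1000 Cpa3 UMIs in cluster 13 and 126 in the mast or basophil-like cluster. The granulocyte-monocyte-like and monocyte or macrophage-like clusters had 19.6 and 204. The ratio in cluster 13 was thus above that of the mast or basophil-like cluster for both genes, by amounts that depended on the gene, and the part of free RNA was not tested further.

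Within cluster 13, Ccr6 and Il1rl1 were seldom found in the same cell. Of the 55 Mll4-labelled cells with Ccr6, 5.45% (1.14 to 15.1) had Il1rl1, against 76.8% (71.6 to 81.5) of the 298 without it, at medians of 7568 and 7596 UMIs. In the control, 0 of 21 cells with Ccr6 had Il1rl1, which allows a share of up to 14.3%, against 66.7% (46.0 to 83.5) of the 27 without. Ccr6 was found in 43.8% of the control cells of the cluster and 15.6% of the Mll4-labelled ones, and Il1rl1 in 37.5% and 65.7%. In the control the intervals of these shares overlapped (29.48 to 58.82 for Ccr6 and 23.95 to 52.65 for Il1rl1), so no order is read there. In the Mll4-labelled library Il1rl1 was the more frequent (60.51 to 70.67, against 11.96 to 19.79 for Ccr6).

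Arg1, Gata3, Cd7, Thy1 and Il2rb differed along that division in the Mll4-labelled library, while Rora and Zbtb16 are not placed on it here. Arg1 was found in 59.9% of Mll4-labelled cluster cells with Il1rl1 and 16.5% of those without, and in 72.2% and 6.67% in the control. Gata3 was found in 91.8% and 58.7% in the Mll4-labelled library. On the Ccr6 side, Cd7 was found in 18.2% of Mll4-labelled cells with Ccr6 and 4.36% of those without, and in 57.1% and 7.41% in the control. Thy1 was found in 47.3% and 25.5% and Il2rb in 23.6% and 6.04% in the Mll4-labelled library. Cxcr6, in contrast, was found with both, in 90.9% of cells with Ccr6 and 72.1% of those without.

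Genes outside the list, singled out after their values had been seen, divided in the same way. Il23r, the interleukin 23 receptor, was found in 61.8% of Mll4-labelled cells with Ccr6 and 2.01% of those without. Il17rb, the interleukin 25 receptor of group 2 cells, went the other way, at 21.8% and 79.9% in the Mll4-labelled library and 0% and 44.4% in the control. Bcl11b, a factor of T and group 2 innate lymphoid cells, was found in 5.45% and 70.8% of the Mll4-labelled cells and in 0% and 51.9% of the control cells. The split was chosen after the data had been seen and has 48 control cells behind it.

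**Figure D5:**
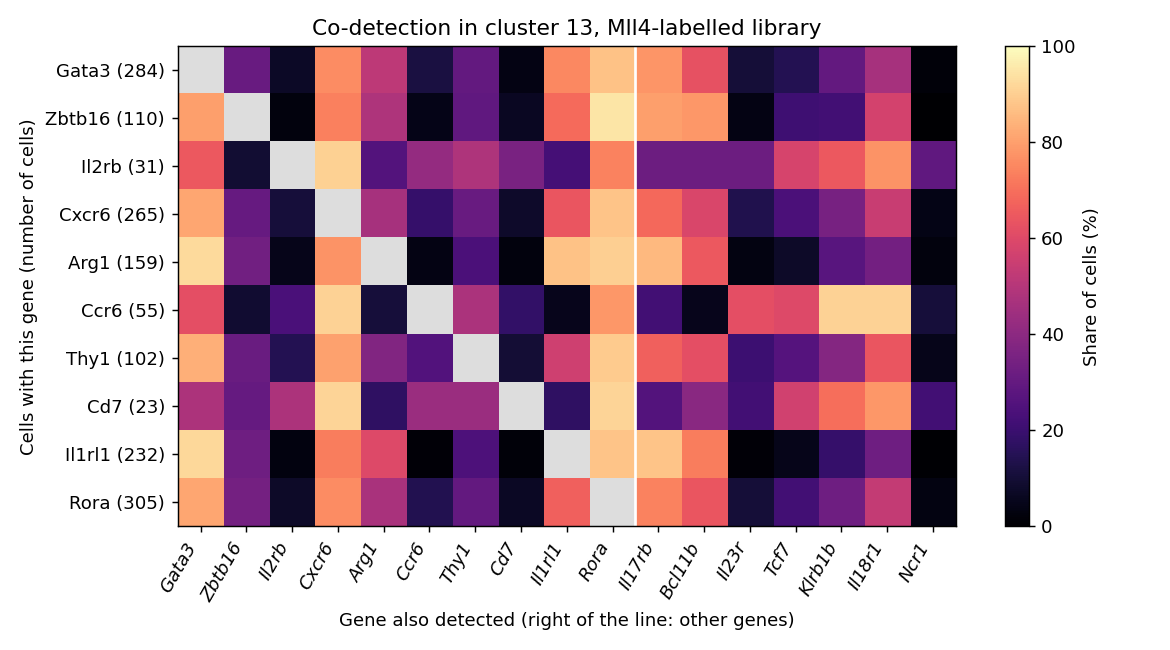
Percent of Mll4-labelled cluster 13 cells with a given gene (rows, number of cells in brackets) that also had a UMI of another (columns; genes outside the list of 10 are right of the line, and grey marks a gene with itself). Of the 55 cells with Ccr6, 5.45% had Il1rl1 and 90.9% had Cxcr6.

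A further list of 47 genes of the innate lymphoid programme was read beside the 10. It was drawn up as 14 transcription factors, 20 receptors and 13 secreted proteins, though Ctla2a, listed with the receptors, does not encode one. Over whole libraries 7 of 35, 22 of 40 and 8 of 35 genes with enough UMIs were at least 2-fold higher than the control in the Mll3-, Mll4- and Mll3/4-labelled libraries, and 4, 2 and 19 at least 2-fold lower. The backgrounds are those given for the 10 genes. In the Mll4 comparison 5 of the 22 higher genes had under 20 UMIs in the control, and in the Mll3/4 comparison 1 of the 8 higher genes had, while 13 of the 19 lower ones had under 20 in the Mll3/4-labelled library, so these counts are a description. The medians were -0.25, 1.43 and -1.38. In the Mll3/4-labelled library, Lef1 (436 CPM) and Il7r (1020 CPM), which B progenitors use too, were among the higher ones, against 0.989 and 5.16 CPM in the control.

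Cluster 13 was higher than the other cells of its library for most of that list. In the control 27 of 34 genes were at least 2-fold higher there and none was 2-fold lower, against 26% and 10% of 14690 genes. With the Mll4 label, 31 of 39 were higher and 1 was lower, against 13.8% and 18.4% of 15431 genes. Of the 10 genes themselves, 9 were 2-fold higher in the control cells of the cluster, where Zbtb16 was lower, and all 10 in the Mll4-labelled cells. The 10 genes were left out of the clustering, but those of the longer list were not and could help to draw the cluster. It was then singled out by its levels of Cxcr6, Arg1, Ccr6 and Il2rb. Both kinds of count therefore describe the cluster and test nothing.

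Among the factors, Id2, which opposes the B- and T-cell programmes, was found in 97.9% of control and 97.5% of Mll4-labelled cells of cluster 13, at 648 and 1043 CPM. Ets1 was at 196 and 624 CPM, Maf at 163 and 358, Bcl11b at 67.3 and 233 and Tcf7, a factor of early innate lymphoid precursors, at 126 and 60.5. Among the receptors, Il7r, the interleukin 7 receptor chain on which most innate lymphoid cells depend, was found in 100% and 98.9% of these cells. Icos was at 137 and 216 CPM and Il18r1 at 160 and 397. Among the secreted proteins, Ltb, a lymphotoxin chain, was at 1365 CPM in the control and 588 in the Mll4-labelled cells. Il22 and Il17a had no UMI in any cell of either library.

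In cells with at least 3 of the 10 genes, ranked against cells with none, the leading other genes differed between libraries. They were Il7r, S100a4 and Hmmr in the control, at 27.7, 6.02 and 2.40 times the level. In the Mll3-labelled library Cd3g, a chain of the T-cell receptor complex, led with 637 times, being found in 7.14% of those cells, before Il7r at 8.77 times. Under the Mll4 label they were Stab2 at 138, Il7r at 68.7 and Il18r1 at 39.2 times, and Cma1 and Cpa3, mast cell proteases, also stood among the first 10 at 15.5 and 5.34 times.

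Of the 6 antibodies, CD48 was higher and CD117 and CD34 were lower in cluster 13 than in the other cells of the control and Mll4-labelled libraries. In centred log ratios (natural log, per cell over the 6 antibodies), CD48 had a median of 3.56 in the cluster and 2.11 in the rest of the control, and 3.63 and 3.02 in the Mll4-labelled library. CD117, the Kit protein used in the sort, was at 0.356 and 0.970 in the control and 0.449 and 0.682 in the Mll4-labelled library. CD34 was at -0.33 and 0.775, and at -0.78 and 0.159. CD201, a stem cell marker, had a higher ratio in the cluster, at -0.97 and -1.24 in the control and -0.69 and -0.95 in the Mll4-labelled library. CD150 (-1.29 and -1.34, and -1.32 and -1.38) and CD135 (-1.30 and -1.43, and -1.31 and -1.38) differed by less. These ratios are relative to the other antibodies, so that of CD201 does not show more of the protein. In cells with 4 or more genes of the list, the median CD201 count was 18 in the control and 29 in the Mll4-labelled library. In cells with none it was 21 and 35. The gate CD150-CD48+CD135-, called MPP3, took 34 of the 48 control, 13 of the 22 Mll3-labelled and 316 of the 353 Mll4-labelled cells.

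Gata3 and Rora were higher in the stem cell gate than in MPP3 in the control, and Ccr6 was not. In the control, Gata3 was at 29.9 CPM in the CD150+CD48-CD135- gate, called HSC, and at 17.95 in MPP3, and Rora at 16.7 and 8.31. Ccr6 was at 0 and 0.68. In the Mll4-labelled library Gata3 was at 29.9 and 20.5 CPM, Rora at 19.1 (16.5 to 22.1) and 22.2 (21.2 to 23.2) and Il1rl1 at 8.63 and 116, so that Rora did not follow Gata3 there. The MPP3 gate held 44.3% of control cells and 69.75% of Mll4-labelled cells, and the part of this in the library levels was not tested.

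Genes with the most similar pattern were looked for over the 19 clusters of at least 50 cells, by Pearson correlation of log2(CPM + 1) among 8753 genes. The points share libraries and depth, so the values describe likeness only. Closest to Cxcr6 were Calca (0.982), Rxrg (0.981) and Ttn (0.976), and Calca was also closest to Arg1 (0.955). Closest to Ccr6 were Cntn1 (0.974), Ccdc184 (0.965) and Il23r (0.962), to Il1rl1 the mast cell and basophil receptor gene Cd200r3 (0.954), to Gata3 Tox (0.918), to Thy1 Skap1 (0.924), to Il2rb Pcsk1 (0.950), to Rora Ahr (0.904), to Cd7 Gstp3 (0.898) and to Zbtb16 Slc35b4 (0.870). Among the 10 genes, Cxcr6 and Arg1 were most alike at 0.967 and Gata3 and Il1rl1 least at 0.0684.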

How the data were processed

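The deposited UMI and antibody counts per cell barcode were used as they stood. Per the file headers they were written by Cell Ranger 6.1.1, and the build is mm10 per the submitters' processing notes. How barcodes were chosen is not given in the sources used here. Groups came from the sample titles, with 1 library per genotype. The gene list and the other lists were chosen with earlier results of these data known.

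The cell filter asked for 1000 or more genes and no more than 10% mitochondrial UMIs (7274, 6101, 4793 and 4748 cells for control, Mll3, Mll4 and Mll3/4). UMIs of each gene were summed per library and divided by the library total. Log2 ratios had 0.5 UMIs added to each sum, intervals came from the exact conditional binomial, and the ratio step was tested on simulated data. Genes with at least 20 UMIs over both libraries were the background. A count of 0 was taken to allow 3. A gene was found in a cell with at least 1 UMI, and shares were also taken after thinning to 3000 UMIs, without the 14, 17, 134 and 33 shallower cells.

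Cells were clustered together with scanpy 1.11.5 (2000 variable genes without the 10, 30 components, 15 neighbours, Leiden resolution 0.6, no batch correction). A cluster was named when fixed markers were raised and led it or made up most of the list, a rule settled after the clusters had been seen. Antibody gates used 1 mixture threshold per antibody. Scrublet called 3, 3, 171 and 1 doublets, too few to have worked in 3 libraries, so none was removed in the values given, and removal of the highest scores is an alternative.

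Genes named were the 10, the 3 most alike per gene of which the first or more are printed, the leading genes of cells with 3 or more, and genes of the fixed lists. Upstream windows came from RefSeq (GRCm38.p6). TMM factors came from edgeR 4.0.16. Other alternatives were other cell filters, doublet removal, equal weight per cell, other numbers of genes and thinning depths, and other cluster settings.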

Additional observations from a re-analysis of the deposited data

How the results depend on the processing

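No paired analysis was possible because each genotype had 1 library and no replicate numbers. With no replicates the values carry counting error only, and counts under 20 UMIs limit Il2rb, Cxcr6, Arg1, Ccr6, Thy1, Cd7 and Rora in the Mll3/4-labelled library. Of the alternatives to the log2 ratios of single genes, 259 stayed within the counting interval, 33 moved and 8 reversed (a change of sign counted only where the interval of the main ratio left out 0), and for shares of cells 102 stayed and 18 moved. TMM moved the median of all genes by 0.10, -0.04 and -0.07 in the Mll3-, Mll4- and Mll3/4-labelled libraries, and median-of-ratios scaling by 0.10, -0.05 and -0.11.

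Leaving out cluster 13, an alternative chosen after seeing the data, reversed Cxcr6 (1.37) and Ccr6 (1.31) in the library labelled Mll3, Il2rb (-0.89), Cd7 (-0.076) and Rora (-0.44) in that labelled Mll4, and Cxcr6 (0.84) and Arg1 (1.41) in that labelled Mll3/4. Arg1 in the library labelled Mll3 (to 1.12) and Gata3 in that labelled Mll4 (to -0.92) also changed sign, from ratios whose intervals held 0. Without the cluster, the Mll3 intervals of Ccr6 (-1.12 to 4.88) and Arg1 (-0.23 to 2.72) held 0. So did the Mll4 intervals of Il2rb (-2.115 to 0.20) and Cd7 (-0.51 to 0.36), so no direction is read for these. Those of Cxcr6 (0.16 to 2.82) under Mll3 and of Rora and Gata3 under Mll4 left out 0. The Mll3/4 values of Cxcr6 and Arg1 rest on 8 and 7 control UMIs. Of the control UMIs, cluster 13 held 91.5% for Cxcr6, 96.4% for Ccr6 and 83.7% for Arg1. For Il2rb, Cd7, Rora and Gata3 it held 41.7%, 26.9%, 7.74% and 3.56% in the control and 85.9%, 56.2%, 64.15% and 51.0% in the Mll4-labelled library. The Mll3/4-labelled library had 1 cell in it. The cause of the changes of sign was not tested. Leaving out cluster 13 moved the median of the 10 genes to 0.17 in the library labelled Mll4 and -1.29 in that labelled Mll3/4. Equal weight per cell moved the Mll4-labelled median to 1.80 and reversed Thy1 there to 0.22, for which the cause was not tested.

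The share of cells with at least 3 genes was in the control 1.58% without cluster 13, 0.468% and 0.264% thinned to 3000 and 5000 UMIs, 12.3% for 2 or more, 0.591% for 4 or more and 0.839% for 2 or more of the 7. In the Mll3-labelled library these were 0.592%, 0.247%, 0.0662%, 7.51%, 0.246% and 0.492%, and 0.616% with the stricter cell filter. In the Mll4-labelled library they were 4.01%, 5.645%, 6.44%, 22.8%, 6.63% and 7.66%, with 15.02% without clusters 8, 12 and 14 and 8.53% without Il1rl1. In the Mll3/4-labelled library the share was 1.33% for 2 or more, and 0% with the stricter filter, thinned to either depth, for 4 or more, for 2 or more of the 7 and without Il1rl1. Thinning left out the cells below the depth chosen. Cluster 13 cells had medians of 4920.5 UMIs in the control and 4133 in the Mll3-labelled library, below 5000. The shares thinned to 3000 and to 5000 UMIs therefore cover different cells. The counts of 2 of the 7, of 3 without Il1rl1 and without clusters 8, 12 and 14 were added after seeing the data. At Leiden resolution 0.3 the leading cluster held 0.907% of control and 1.69% of Mll3-labelled cells. Its overlap with cluster 13 was 414 of 424 cells.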
